A study of Mus musculus with 39 samples.

Results

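The taurine and sulfur amino acid genes of the liver were followed in 39 mice: Csad, Cdo1, Gadl1, Slc6a6, Cth, Cbs, Bhmt, Mat1a, Gnmt and Ahcy. The 10 genes were chosen by a list of taurine synthesis and of methionine and cysteine metabolism that was drawn up with earlier results of these arrays known, and Csad heads it because it was selected on its lower values in AggE livers 24 hrs after the stressor. Of the 17452 genes tested on 24939 RefSeq probes, 9 of the 10 were found, on 11 probes. Gadl1 had no probe by its RefSeq accession and is not analysed here. Csad and Slc6a6 had 2 probes each, and the others had 1.

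Male C57BL6/J mice, singly housed, were placed daily for 6 hrs in a small cage inside the home cage of a trained SJL aggressor, without food or liquid, and met the aggressor directly 3 times per session (AggE). Control mice (Ctrl) kept the same schedule, food deprivation included, with no aggressor present. Livers were taken 24 hrs post-5-day stressor (4 Ctrl, 5 AggE), 24 hrs post-10-day stressor (4 Ctrl, 5 AggE), 1.5 wks post-5-day stressor (4 Ctrl, 5 AggE) and 4 wks post-10-day stressor (6 Ctrl, 6 AggE). All mice sat across a partition from an aggressor 1 hr before the tissue was taken, so that Ctrl livers are not those of undisturbed mice. Each liver RNA, labeled with Cy-5, was hybridized on 1 array with a commercial mouse reference RNA labeled with Cy-3, and the value used below is the normalized log2 ratio of liver over reference. A value of 1 on this scale is a 2-fold higher signal in liver than in the reference, and levels of different genes on it are not comparable. Differences are AggE minus Ctrl, with the standard error (SE) of a limma fit over all 39 arrays, and a gene was called where its p, adjusted over all probes after Benjamini and Hochberg, did not exceed 0.05.

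The groups follow the source names of the samples. The descriptions of the AggE livers at 24 hrs post-5-day stressor, and titles of livers at 1.5 wks, name other periods. There were 11 slides and 2 days of scanning, and at both 24 hr points no slide held both Ctrl and AggE livers, so that slide and stressor cannot be told apart there. The share of spots well above background in Cy-5 ranged from 15.2% to 70.4%, and it was lowest in median at 1.5 wks (22.4% in both groups) and at 24 hrs post-5-day in AggE (22.6%). All 5 hepatocyte markers (Alb, Apoa1, Ttr, Tat, Cyp2e1) were well above background on every array, whereas Cela1, Cpa1 and Pnlip of exocrine pancreas and Epcam and Krt7 of bile duct were so on no array at the 24 hr points. Krt19 of bile duct was so on every array at 24 hrs post-10-day and on some in both groups post-5-day. Prss2 of pancreas was so at the 24 hr points only in AggE livers post-10-day, and not on all of their arrays. In whole liver, fewer cells of a type and less RNA per cell cannot be told apart.

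Taurine is made from cysteine, mostly in the liver, where it is joined to bile acids. Cysteine dioxygenase (Cdo1) oxidizes cysteine to cysteine sulfinate, cysteine sulfinate decarboxylase (Csad) turns that into hypotaurine, and hypotaurine is oxidized to taurine. Gadl1 encodes a related decarboxylase, and Slc6a6 the taurine transporter of the plasma membrane. The cysteine comes from methionine. Mat1a makes S-adenosylmethionine, Gnmt spends its methyl group on glycine, Ahcy releases homocysteine, and homocysteine is either remethylated by betaine (Bhmt) or passed by Cbs and Cth to cysteine in transsulfuration.

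The stretches before the annotated starts of Csad are shown because Csad is the gene on which the comparisons below turn. They are the 250 bases 5′ of each of the 2 starts that RefSeq gives on the minus strand of GRCm38.p6, at chr15:102205053-102205302 and chr15:102189044-102189293, and the arrays do not tell which start is used.
Csad start 1: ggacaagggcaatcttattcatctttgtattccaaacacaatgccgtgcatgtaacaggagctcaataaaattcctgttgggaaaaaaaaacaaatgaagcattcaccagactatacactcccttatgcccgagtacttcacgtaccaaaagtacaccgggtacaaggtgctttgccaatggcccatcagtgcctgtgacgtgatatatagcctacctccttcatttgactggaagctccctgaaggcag
Csad start 2: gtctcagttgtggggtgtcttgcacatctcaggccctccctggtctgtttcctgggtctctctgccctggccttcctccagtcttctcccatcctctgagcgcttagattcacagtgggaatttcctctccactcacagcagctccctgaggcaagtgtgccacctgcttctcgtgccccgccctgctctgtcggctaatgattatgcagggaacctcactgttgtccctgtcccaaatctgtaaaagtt
Neither stretch held the nuclear receptor motif AGGTCA, the glucocorticoid receptor motif TGTTCT or the TATA box TATAAA on either strand, so no letters are in capitals. Of 32851 such stretches of 250 bases, 14% held AGGTCA, 16.1% TGTTCT and 12.4% TATAAA. Such a stretch was examined for 6 of the 10 genes, and AGGTCA was found before Bhmt, Gnmt, Ahcy and Gadl1. That the letters are missing before Csad says only that they are not in these stretches.

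Csad was lower in AggE than in Ctrl livers 24 hrs after both regimens, about 3-fold, and the levels of AggE and Ctrl livers overlapped at both later points. At 24 hrs post-5-day stressor the 4 Ctrl livers had log2 ratios of 1.27, 1.49, 1.04 and 2.03 on the brighter probe, and the 5 AggE livers -0.26, -0.07, 0.15, -0.37 and 0.12. Every AggE liver was below every Ctrl liver. The means were 1.46 ± 0.42 (SD, n = 4) and -0.09 ± 0.23 (SD, n = 5), a difference of -1.54 (SE 0.34), or 2.91-fold.

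At 24 hrs post-10-day stressor the Ctrl livers had Csad log2 ratios of 1.80, 2.30, 1.98 and 1.93, and the AggE livers -0.33, 0.23, 0.38, 0.76 and 1.06. The groups again did not overlap, and the AggE livers were spread more widely (SD 0.53) than after the 5-day regimen. The difference was -1.58 (SE 0.34), or 3.00-fold. Counted from the most negative difference of all 17452 genes, Csad ranked 5 at 24 hrs post-5-day and 2 at 24 hrs post-10-day. These are the values that chose the gene and are given as a description, with no test.

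**Figure D1:**
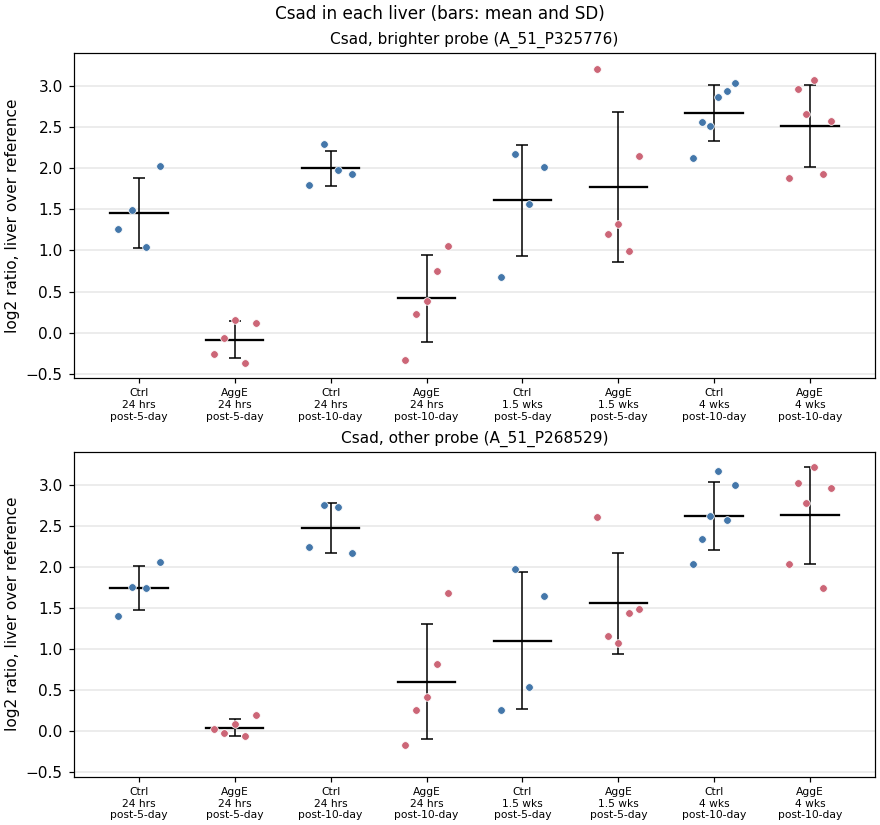
Csad in each of the 39 livers, with the log2 ratio of liver over reference on the y axis and the 8 groups on the x axis, for the brighter probe (top) and the other probe (bottom); points are livers and bars are the mean and SD. At both 24 hr points all AggE livers lie below all Ctrl livers on both probes, and at 1.5 and 4 wks the groups overlap.

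The other Csad probe gave larger differences at both 24 hr points. On it the difference was -1.70 (SE 0.34) at 24 hrs post-5-day and -1.88 (SE 0.34) at 24 hrs post-10-day, and the groups did not overlap at either point. Over the 39 arrays the log2 ratios of the 2 probes had a Pearson r of 0.94, and their deviations from the group means an r of 0.86. The probes share each array, its RNA and its normalization. Both were well above background in Cy-5 on all 39 arrays.

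The difference can be seen in the scanner signal before any correction. At 24 hrs post-5-day the mean log2 Cy-5 signal of the brighter Csad spot was 8.37 in Ctrl and 6.06 in AggE livers, whereas the Cy-3 signal of the reference on the same spot was 10.1 in both. At 24 hrs post-10-day the Cy-5 means were 9.97 and 7.56, and the Cy-3 means 10.9 and 10.8. The Cy-5 signal of the arrays as a whole, taken as the 95th percentile of the spots, differed less between the groups, with log2 means of 7.89 in Ctrl and 7.43 in AggE livers post-5-day, and of 8.42 and 8.16 post-10-day.

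At 1.5 wks post-5-day stressor Csad no longer separated the groups. The 4 Ctrl livers had 0.68, 2.17, 1.57 and 2.02, and the 5 AggE livers 3.21, 1.21, 1.33, 0.99 and 2.15. The difference was 0.17 (SE 0.34), and it was 0.46 (SE 0.34) on the other probe. On the slide that held both groups, the single AggE liver (2.15) was 0.67 above the mean of 3 Ctrl livers.

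At 4 wks post-10-day stressor Ctrl livers ranged from 2.12 to 3.04, with a median of 2.72, and AggE livers from 1.89 to 3.08, with a median of 2.62. The difference was -0.16 (SE 0.29), the other probe gave 0.01 (SE 0.29), and the groups overlapped over most of their range. On the slide that held both groups, the single AggE liver, the lowest of its group at 1.89, was 1.07 lower than the mean of 3 Ctrl livers (2.95).

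Set against one another, the change at 24 hrs post-5-day minus that at 1.5 wks was -1.71 (SE 0.48), and for the 10-day regimen the 24 hr change less that at 4 wks was -1.42 (SE 0.45). Both rest on the 24 hr values that chose the gene, as do the steps within AggE livers, and are a description with no test. On the other probe these were -2.15 and -1.88. The change after 5 days minus that after 10 days was 0.04 (SE 0.48), which does not show that the regimens act alike. Within AggE livers, Csad was 1.86 (SE 0.32) higher at 1.5 wks than at 24 hrs post-5-day and 2.10 (SE 0.31) higher at 4 wks than at 24 hrs post-10-day. Within Ctrl livers the same steps were 0.15 (SE 0.36) and 0.67 (SE 0.33). The probes differed most in the first of these Ctrl steps, which was -0.64 (SE 0.36) on the other probe.

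Ordered by mean, Csad was lowest in AggE at 24 hrs post-5-day (-0.09), followed by AggE at 24 hrs post-10-day (0.42), Ctrl at 24 hrs post-5-day (1.46), Ctrl at 1.5 wks (1.61), AggE at 1.5 wks (1.78), Ctrl at 24 hrs post-10-day (2.00), AggE at 4 wks (2.52) and Ctrl at 4 wks (2.68). Neighbours in this order differed by less than the larger of their SDs at all steps but those from AggE at 24 hrs post-10-day to Ctrl at 24 hrs post-5-day and from Ctrl at 24 hrs post-10-day to AggE at 4 wks, and the latter barely exceeded it. The AggE groups at 24 hrs thus had the lowest means, although single livers overlapped with other time points. The AggE livers post-10-day at 0.76 and 1.06 lay above the lowest Ctrl liver at 1.5 wks (0.68). The AggE liver at 1.06 also lay above the lowest Ctrl liver post-5-day (1.04) and the lowest AggE liver at 1.5 wks (0.99).

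The slides bear on this only in part. The fifth AggE liver post-5-day was hybridized on another slide than the other 4, together with 3 AggE livers of the 1.5 wks group. It had a Csad log2 ratio of 0.12, and the 3 livers beside it had 0.99 to 3.21. The fifth AggE liver post-10-day, alone on its slide, had 1.06 and was the highest of its group. With the slide as a random block the differences were -1.52 (SE 0.54) and -1.48 (SE 0.54), and a fixed block for the slide could not be fitted at the 24 hr points. Between the 2 slides that held the Ctrl livers at 4 wks, 3 and 3, mean Csad differed by 0.55 with no difference in treatment.

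Of the 8 measured genes other than Csad, none was called at 24 hrs post-5-day stressor, against 3.22% of all genes (562 of 17452), and 2, Cth and Slc6a6, had an unadjusted p not above 0.05. By a second limit, a fold of at least 2 and an unadjusted p not above 0.05 (the 2-fold limit), none of the 8 was past it, against 0.292% of all genes. With the processed signals of the scanner software Mat1a was past it, at 1.52, and was not called (adjusted p = 0.204). At 24 hrs post-10-day none of the 8 was called, against 0.0974% of all genes, none had an unadjusted p not above 0.05, and none was past the 2-fold limit, against 0.178%. Csad is left out of these counts because both contrasts chose it. The median difference over the 9 genes was 0.12 at both points, and over all genes it was 0.00.

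**Figure D2:**
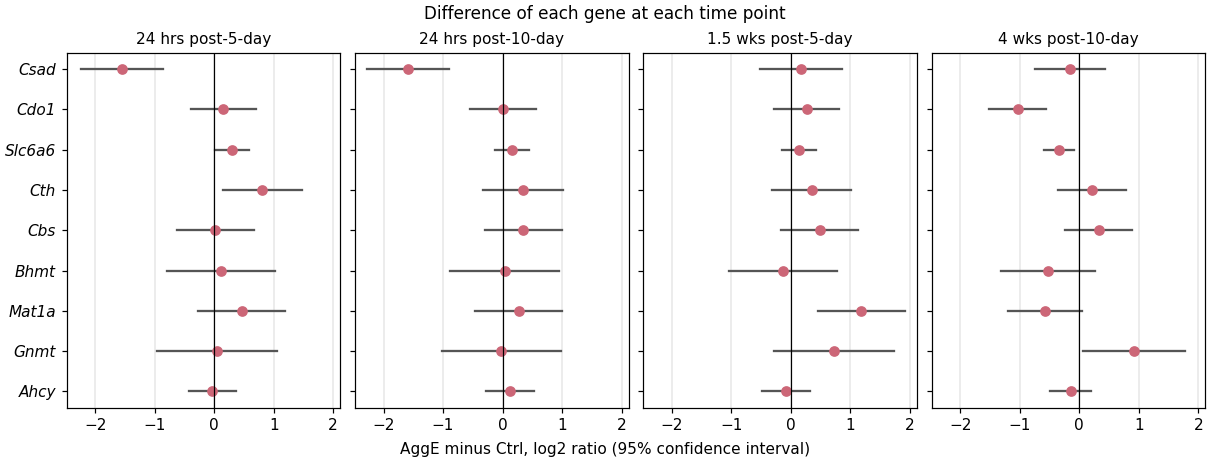
Difference between AggE and Ctrl livers for each of the 9 genes (rows) at the 4 time points (panels), on the log2 scale, with points for the fitted difference and lines for its 95% confidence interval. Csad, chosen by its values at the 24 hr points, has differences of -1.54 and -1.58 there and of 0.17 and -0.16 later, and the interval of Cdo1 lies below 0 at 4 wks.

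The enzyme just before Csad was not called at 24 hrs. Cdo1 differed by 0.16 (SE 0.27, adjusted p = 0.854) post-5-day and by 0.00 (SE 0.27, adjusted p = 1.00) post-10-day, with 95% intervals of -0.40 to 0.71 and -0.55 to 0.55. The Ctrl livers post-5-day had Cdo1 log2 ratios of 5.11, 5.73, 5.11 and 5.88, and the AggE livers 5.89, 5.89, 5.53, 6.03 and 4.73. The range of the AggE livers, 4.73 to 6.03, took in that of the Ctrl livers, 5.11 to 5.88. The AggE liver at 4.73 was the fifth, the one on another slide.

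The taurine transporter Slc6a6 had log2 ratios of 0.12, 0.28, -0.21 and 0.42 in Ctrl livers at 24 hrs post-5-day and of 0.54, 0.51, 0.70, 0.19 and 0.29 in AggE livers. Its difference was 0.30 (SE 0.14) and did not pass the test (adjusted p = 0.270). At 24 hrs post-10-day it was 0.15 (SE 0.14, adjusted p = 1.00). The other Slc6a6 probe was well above background on no array of either group post-5-day and correlated with the first at r = 0.08 over the 39 arrays, so that it is not used further.

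In transsulfuration, Cth, which splits cystathionine to release cysteine, had the largest difference after Csad at 24 hrs post-5-day. Ctrl livers had 3.21, 3.89, 4.07 and 3.94, and AggE livers 4.81, 4.54, 4.54, 5.03 and 4.02. Of the AggE livers 4 lay above all Ctrl livers and the fifth, the one on another slide, lay within them. The difference was 0.81 (SE 0.33), with an adjusted p of 0.177, and was therefore not called. At 24 hrs post-10-day it was 0.35 (SE 0.33, adjusted p = 1.00). Cbs, the enzyme before it, differed by 0.01 (SE 0.32) and 0.35 (SE 0.32), with adjusted p of 0.991 and 1.00.

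The methionine cycle enzymes gave no call at either 24 hr point. Mat1a differed by 0.46 (SE 0.36) post-5-day and 0.27 (SE 0.36) post-10-day, Gnmt by 0.05 (SE 0.49) and -0.02 (SE 0.49), Ahcy by -0.03 (SE 0.20) and 0.12 (SE 0.20), and Bhmt by 0.12 (SE 0.45) and 0.03 (SE 0.45). The adjusted p ranged from 0.573 to 1.00. For Bhmt, Gnmt and Ahcy the intervals at 24 hrs post-5-day include differences in either direction, the widest being that of Gnmt from -0.96 to 1.05. In Mat1a, Gnmt, Ahcy and Bhmt the lowest AggE liver post-5-day was the fifth, the one on another slide. It was also the lowest for Cdo1 and Cth. For Bhmt it had 5.54, against 7.34 to 7.59 in the other 4.

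At 1.5 wks post-5-day stressor no gene of the 9 was called, nor was any of the 17452 (0%), and 1 of the 9 had an unadjusted p not above 0.05. That was Mat1a, the liver form of S-adenosylmethionine synthetase, which was also past the 2-fold limit, against 0.0344% of all genes. Ctrl livers had Mat1a log2 ratios of 3.55, 4.26, 1.28 and 2.96, and AggE livers 3.68, 4.35, 4.33, 5.03 and 3.59. The difference of 1.18 (SE 0.36) had an adjusted p of 1.00. The groups overlapped, and the third Ctrl liver was by far the lowest of all 39 livers. Without it the difference was 0.61, and Mat1a was then not past the 2-fold limit, nor was it without the fourth AggE liver (0.98). On the 1 slide that held both groups, the single AggE liver was 0.56 above the mean of 3 Ctrl livers.

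At 4 wks post-10-day stressor Cdo1 was lower in AggE than in Ctrl livers. Ctrl livers had log2 ratios from 5.64 to 6.37, with a median of 5.77, and AggE livers from 4.02 to 5.65, with a median of 4.90. Of the AggE livers, 5 lay below all Ctrl livers and 1, at 5.65, lay just above the lowest Ctrl value. The difference was -1.03 (SE 0.23), or 2.05-fold, with an adjusted p of 0.016. It was the only call among the 9 genes by adjusted p, against 4.07% of all genes (710), and the only one by the 2-fold limit, against 0.321%. On the slide that held both groups, the single AggE liver was 1.32 below the mean of 3 Ctrl livers.

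The Cdo1 difference at 4 wks depended on the processing. Before any correction the mean log2 Cy-5 signal of the Cdo1 spot was 11.8 in AggE and 11.9 in Ctrl livers. The Cy-3 means were 7.85 and 7.96, and those of the 95th percentile of Cy-5 9.51 and 9.08. The difference was -0.25 with processed signals, -0.49 with no background correction and -0.50 with Cy-5 alone, and was called in none of these. With no normalization between arrays it was -1.56 (adjusted p = 0.020). With the slide as a random block it was -0.99 with an adjusted p of 0.115, in a fit of only the 2 groups it was -1.03 with an adjusted p of 0.108, and with the deposited log ratios of the series table it was -0.19 with an adjusted p of 0.808. Without the second or the third AggE liver, the adjusted p was 0.065 each. The change of Cdo1 at 24 hrs post-10-day minus that at 4 wks was 1.04 (SE 0.36), with an adjusted p of 0.430. From 24 hrs to 4 wks Cdo1 changed by -0.32 (SE 0.25, adjusted p = 0.440) in AggE livers. In Ctrl livers the same step was 0.72 (SE 0.26, adjusted p = 0.080).

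Other genes at 4 wks gave differences that did not pass the test. Slc6a6 was at -0.39 ± 0.15 in AggE livers and at -0.05 ± 0.23 in Ctrl livers (SD, n = 6 each), a difference of -0.34 (SE 0.12, adjusted p = 0.102). Gnmt, which disposes of surplus S-adenosylmethionine, was at 5.55 ± 0.73 and 4.63 ± 0.67 (SD, n = 6 each), a difference of 0.92 (SE 0.43, adjusted p = 0.213). The first AggE liver had a Gnmt log2 ratio of 4.16, and the other 5 had 5.52 to 6.09. Mean Gnmt also differed by 0.83 between the 2 slides of Ctrl livers, about as much as between the groups. Mat1a was at -0.58 (SE 0.31), Bhmt at -0.53 (SE 0.39), Cbs at 0.32 (SE 0.27), Cth at 0.22 (SE 0.28) and Ahcy at -0.14 (SE 0.17), with adjusted p from 0.288 to 0.729.

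**Figure D3:**
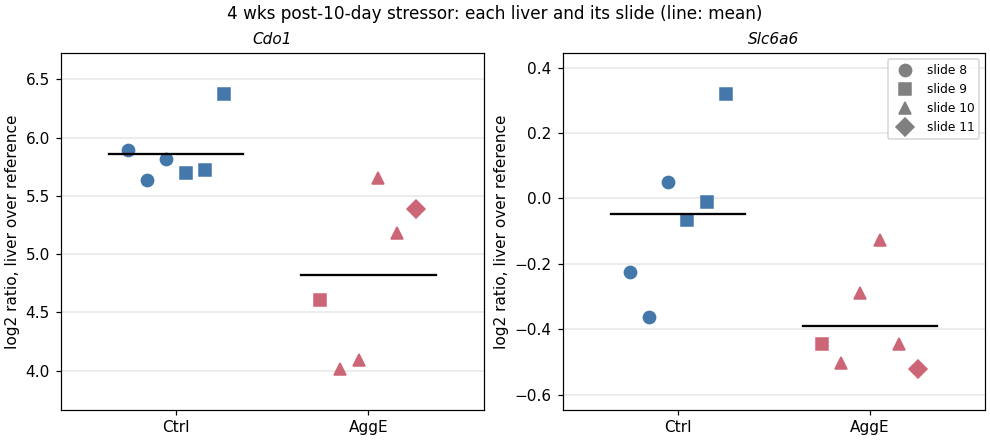
Cdo1 (left) and Slc6a6 (right) in each liver at 4 wks post-10-day stressor, with the log2 ratio of liver over reference on the y axis, marker shapes for the slide and a line at each group mean. For Cdo1, 5 of 6 AggE livers lie below all Ctrl livers, and the AggE liver on slide 9 is 1.32 below the mean of the 3 Ctrl livers there.

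None of the 8 genes other than Csad was called for a difference between the changes. The shares of all genes were 0.0344% for 24 hrs post-5-day against 24 hrs post-10-day, 0.0974% for 24 hrs post-5-day against 1.5 wks, and 0.0802% for 24 hrs post-10-day against 4 wks. In the first and the second of these none of the 8 had an unadjusted p not above 0.05, and in the third 2 had, Cdo1 and Slc6a6.

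At 1.5 wks Cth, Cbs, Mat1a and Gnmt were lower than at 24 hrs post-5-day in both Ctrl and AggE livers. In Ctrl livers at 1.5 wks, against Ctrl livers at 24 hrs post-5-day, Cth fell by 2.45 (SE 0.35), Cbs fell by 2.11 (SE 0.34), Mat1a fell by 2.84 (SE 0.38) and Gnmt fell by 3.31 (SE 0.52) on the log2 scale, with adjusted p from 3.7e-06 to 3.8e-05. These 4 were the only ones called of 9, against 13.7% of all genes. In AggE livers the same 4 fell by 2.92, 1.64, 2.12 and 2.64, with adjusted p from 4.9e-08 to 0.00019, against 23.5% of all genes. Cdo1, Bhmt, Ahcy and Slc6a6 were not called in either step. Under the alternatives Cdo1 and Ahcy were called as higher in AggE livers at 1.5 wks in 7 of 15 each and Bhmt in 2, and in Ctrl livers Cdo1 in 3, Bhmt in 4 and Ahcy in 5 of 14, whereas Slc6a6 was called in none.

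The fall at 1.5 wks was not equally firm for the 4 enzymes. Cth fell under every alternative tried, with values of -2.84 to -2.01 in Ctrl and of -3.22 to -2.16 in AggE livers. With the processed signals of the scanner software, the others differed by -0.20 (Gnmt), -0.39 (Cbs) and -0.48 (Mat1a) in Ctrl livers and by 0.09, 0.25 and -1.06 in AggE livers, and none was called. Of 26 settings in AggE livers, Mat1a was not called in 6, Cbs in 5 and Gnmt in 3, and of 23 in Ctrl livers in 3, 1 and 1. The smallest Mat1a value in AggE livers was -0.16, with offset 0. The arrays at 1.5 wks were dimmer in Cy-5, with log2 means of the 95th percentile of 6.68 in Ctrl and 6.97 in AggE livers. On the Gnmt spot the Cy-3 signal of the reference was lower too, 7.05 in Ctrl livers at 1.5 wks and 8.78 at 24 hrs post-5-day.

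Age and time changed together between these groups and cannot be told apart, and in Ctrl livers no slide held both times. In AggE livers the single liver at 24 hrs post-5-day that shared a slide with 3 livers at 1.5 wks had log2 ratios of 4.02 for Cth, 2.84 for Cbs, 5.62 for Mat1a and 5.58 for Gnmt. The 3 livers beside it had 0.97 to 2.90, 0.50 to 1.04, 3.68 to 5.03 and 2.52 to 4.98, all below it. The fourth Ctrl liver at 1.5 wks shared a slide with 3 Ctrl livers at 4 wks. It had log2 ratios of 1.82 for Cth, 0.89 for Cbs, 2.96 for Mat1a and 4.12 for Gnmt, and the means of the 3 livers beside it were 2.77, 2.01, 5.06 and 5.05. Cell type markers moved as well: of 33 measured, 3 rose in Ctrl livers at 1.5 wks (Apoa1, Col1a1 and Krt19) and 7 fell (Cyp2e1, Ttr, Clec4f, Cd5l, Stab2, Reln and Lrat, the last with a probe well above background on no Ctrl array at 1.5 wks), against 13.7% of all genes called. The 5 hepatocyte markers did not go one way, since Cyp2e1 fell by 2.80 and Ttr fell by 2.04, Apoa1 rose by 1.61, and Alb (0.94) and Tat (-0.06) were not called. In AggE livers 3 rose (Apoa1, Des and Krt7, the last with a probe well above background on no array of either group) and 8 fell (Cyp2e1, Ttr, Clec4f, Cd5l, Marco, Vsig4, Stab2 and Lrat), against 23.5% of all genes called. In Ctrl livers the summed log2 Cy-5 level of the 5 hepatocyte markers was 16.2 to 16.5 at 1.5 wks and 16.8 to 17.2 at 24 hrs, that of the 4 Kupffer markers 9.37 to 11.45 and 11.54 to 12.07. In AggE livers these were 16.4 to 16.8 and 17.0 to 17.5 for hepatocytes, and 9.73 to 11.61 and 11.92 to 12.23 for Kupffer cells. Their part in the result was not tested.

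From 24 hrs to 4 wks after the 10-day regimen none of the 9 genes was called in Ctrl livers, against 10.3% of all genes. In AggE livers Mat1a fell by 1.08 (SE 0.32), Ahcy fell by 0.60 (SE 0.18) and Slc6a6 fell by 0.43 (SE 0.13), with adjusted p of 0.023 to 0.024, against 14.4% of all genes. When slides were a random block none of these 3 was called, with adjusted p of 0.291 (Mat1a), 0.360 (Ahcy) and 0.267 (Slc6a6) at that estimated correlation. With a fixed block for the scan day none of them was called either.

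**Figure D4:**
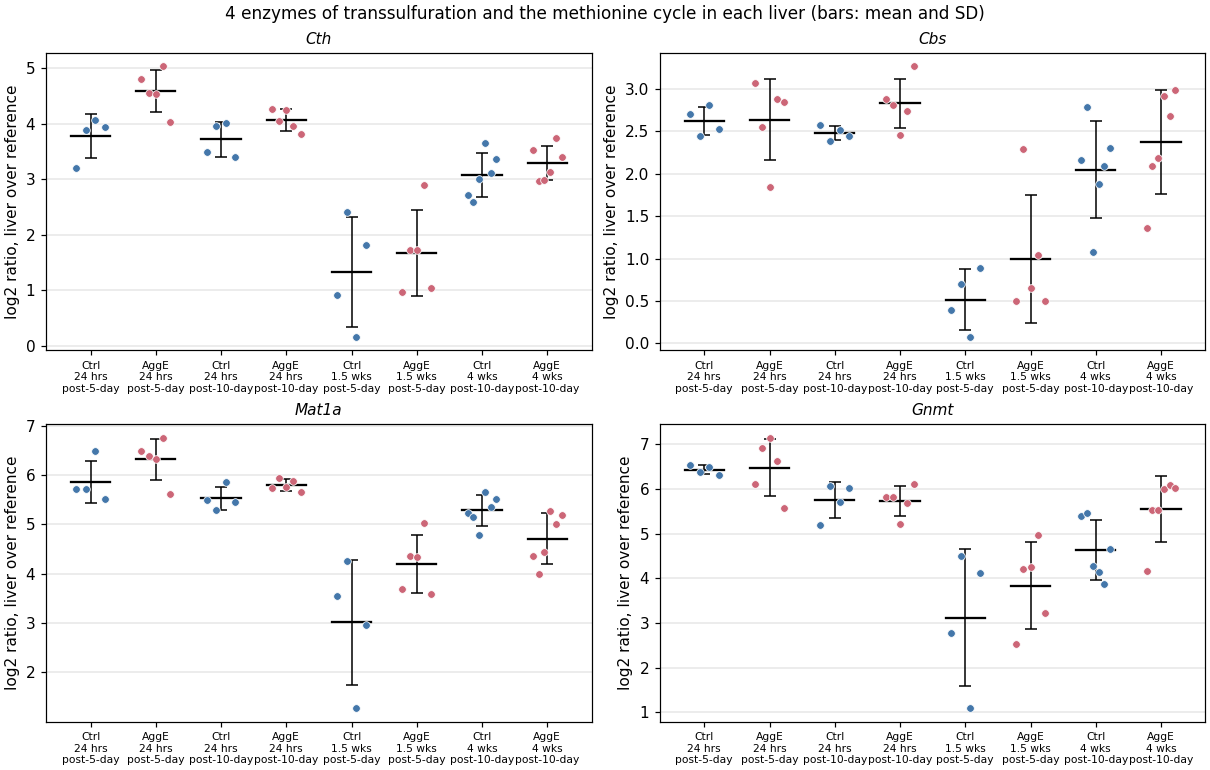
Cth, Cbs, Mat1a and Gnmt in each of the 39 livers, with the log2 ratio of liver over reference on the y axis and the 8 groups on the x axis; points are livers and bars are the mean and SD. In all 4 panels the group means at 1.5 wks are the lowest, in Ctrl and AggE alike.

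Among the transsulfuration and methionine cycle enzymes, the deviations of Cth and Mat1a from their group means had a Pearson r of 0.74 over the 39 arrays, and those of Mat1a and Gnmt 0.65. The other pairs ranged from 0.53 (Cth and Gnmt) down to -0.16 (Ahcy and Cbs), with 0.17 for Cth and Cbs. For Csad the r with the 8 other genes ranged from -0.23 (Bhmt) to 0.46 (Slc6a6). These are descriptions, since the values share arrays, slides and normalization.

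Over all 39 arrays the genes most like Csad among 9991 well above background were Alyref2 (r = 0.73), Efna4 (0.71), Slc22a12 (0.71), Prm2 (0.70) and Pparg (0.70). This likeness takes in the group differences by which Csad was selected. By the deviations from group means the most alike were Sugp2 (0.62), Ldlrad4 (0.56), Oaz2 (0.54), Pcgf1 (0.54) and Sqstm1 (0.53). None of the 9 genes of taurine and sulfur amino acids was in either list.

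A wider list of 44 genes of the pathway, in 8 sets, was examined in the same comparisons. At 24 hrs post-5-day 1 of the 44 was called, against 3.22% of all genes. It was Nnmt, which methylates nicotinamide with S-adenosylmethionine, and it was higher in AggE livers. AggE livers had 4.88 ± 0.30 (SD, n = 5) and Ctrl livers had 4.25 ± 0.16 (SD, n = 4), a difference of 0.63 (SE 0.16, adjusted p = 0.024), with the lowest AggE liver (4.36) just below the highest Ctrl liver (4.38). When slides were a random block, Nnmt differed by 0.49 and was not called (adjusted p = 0.679 with that estimated correlation). None was called at 24 hrs post-10-day or at 1.5 wks, and 1 and 3 had an unadjusted p not above 0.05 there. Of all genes 0.0974% were called at 24 hrs post-10-day and 0% at 1.5 wks.

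At 4 wks post-10-day 2 of the 44 were called, against 4.07% of all genes. Mat2a, the S-adenosylmethionine synthetase of tissues other than liver, was 0.59 lower (SE 0.13, adjusted p = 0.014) in AggE than in Ctrl livers. Adi1, an enzyme of methionine salvage, was 0.51 higher (SE 0.14, adjusted p = 0.033), and all AggE livers (0.73 to 1.18) lay above all Ctrl livers (0.18 to 0.61). When slides were a random block neither was called, with adjusted p of 0.093 (Mat2a) and 0.238 (Adi1) at that estimated correlation. No gene of the sets for betaine and glycine, cysteine and sulfide oxidation, glutathione, sulfate activation or taurine use and transport was called in any of the 4 comparisons. The medians of the 44 were between -0.04 and 0.07 in the 4 comparisons, and those of all genes between 0.00 and 0.01. Dmgdh, a mitochondrial enzyme of choline breakdown, was past the 2-fold limit at 4 wks (-1.03, SE 0.31) with an adjusted p of 0.056. With array weights 7 genes of the list were called at 4 wks, and none when slides were a random block.

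Of the 33 cell type markers, none was called between AggE and Ctrl livers at 24 hrs post-5-day, 24 hrs post-10-day or 1.5 wks. The shares of all genes called there were 3.22%, 0.0974% and 0%. Of the markers 5, 2 and 0 had an unadjusted p not above 0.05. Post-5-day the 5 were Marco (1.20, adjusted p = 0.116) of Kupffer cells, Ttr (1.02, adjusted p = 0.166) of hepatocytes, Des (-0.31, adjusted p = 0.067) of stellate cells, and Krt7 and Cela1, whose probes were well above background on no array of either group. The other Kupffer markers post-5-day were at -0.16 (Clec4f), 0.17 (Cd5l) and 0.31 (Vsig4), and the other hepatocyte markers at -0.12 (Alb), 0.04 (Apoa1), 0.10 (Tat) and -0.33 (Cyp2e1). Post-10-day the 4 Kupffer markers were at 1.31 (Marco), 0.43 (Clec4f), 0.47 (Cd5l) and 0.37 (Vsig4), with adjusted p of 1.00 each. The hepatocyte markers post-10-day were at 0.76 (Ttr), 0.29 (Alb), -0.14 (Apoa1), 0.02 (Tat) and 0.10 (Cyp2e1). The summed log2 Cy-5 level of the 4 Kupffer markers was 11.54 to 12.07 in Ctrl and 11.92 to 12.23 in AggE livers post-5-day, and that of the 5 hepatocyte markers 16.8 to 17.2 and 17.0 to 17.5. Post-10-day these were 10.68 to 11.81 and 11.70 to 12.03 for Kupffer cells, and 17.0 to 17.2 and 17.0 to 17.3 for hepatocytes. Their part in the Csad difference was not tested. At 4 wks 7 of the 33 had an unadjusted p not above 0.05, and 1 was called, against 4.07% of all genes. It was Epcam of bile duct, lower in AggE livers (adjusted p = 0.024). Its probe was well above background on no AggE array there, so that its AggE level is only a bound and no size is given. The same held for Pnlip of exocrine pancreas, which was not called. The other 5 were Cd5l, Clec4f, Ptprc, Ms4a1 and Krt7 (-0.23), with adjusted p from 0.058 to 0.150. The 4 Kupffer markers were at -1.13 (Cd5l), -0.81 (Clec4f), -0.57 (Marco) and 0.26 (Vsig4), and the leukocyte markers Ptprc, Ms4a1 and Cd3e at -0.42, -0.38 and 0.26. The hepatocyte markers were at -0.60 (Apoa1), -0.53 (Tat), -0.25 (Alb), -0.14 (Ttr) and -0.02 (Cyp2e1). At 4 wks the summed log2 Cy-5 level of the Kupffer markers was 11.37 to 12.62 in Ctrl and 11.16 to 12.27 in AggE livers, and that of the hepatocyte markers 16.77 to 17.23 and 16.88 to 17.18. Their part in the Cdo1 difference was not tested.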

How the data were processed

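Liver RNA of 39 mice in 8 groups was hybridized by the authors on Agilent 4 x 44k two-color arrays and read with Agilent Feature Extraction 11.5.1.1. The deposited scanner files hold the median, background and processed intensity of each spot in Cy-5 (liver) and Cy-3 (reference), and the deposited series table holds log10 ratios of the same arrays, used only as an alternative. No dyes were swapped.

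Median intensities were corrected with normexp (offset 50), loess within arrays and quantile between arrays (limma 3.58.1, R 4.3.3). Control spots had weight 0 and outlier spots were left out. Spots of a probe were averaged, and a gene was taken by its brightest probe among 24939 RefSeq probes, 24372 of them with a current symbol. A single limma fit had 8 group means, with p-values adjusted over all probes by Benjamini-Hochberg. The number of arrays limits the precision. Replicates are mice by the labels.

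The members and lists were chosen with earlier results of these data known. Csad and all measured members are named, with genes of the wider list that were called and the 5 genes most like Csad by each of 2 correlations. Dmgdh and the markers were named after their values were seen. The later-minus-24 hrs comparisons were added after the levels at 1.5 wks were seen. Alternatives changed background, offset, normalization, ratio, probes, groups, weights, slide, scan day and pairing, and left out each array.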

Additional observations from a re-analysis of the deposited data

Results flagged for a closer look

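Of 80 sets of a probe and a group that were examined, 6 had 1 liver far from the others by Dixon's test, which chance gives in about 1 of 20. They were the first AggE liver at 1.5 wks on the other Csad probe (2.62), the sixth Ctrl liver at 4 wks for Cdo1 (6.37) and for Bhmt (7.37), the fifth AggE liver at 24 hrs post-5-day for Bhmt (5.54), the first AggE liver at 4 wks for Gnmt (4.16), and the third Ctrl liver at 24 hrs post-10-day for Ahcy (3.32), all as log2 ratios.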

How the results depend on the processing

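The Csad difference lay between -2.11 and -1.35 at 24 hrs post-5-day and between -1.99 and -1.40 at 24 hrs post-10-day under all alternatives run. The most negative value, -2.11 at 24 hrs post-5-day, came from the series table log ratios. Leaving out 1 liver gave -1.68 to -1.35, -1.74 to -1.40, -0.19 to 0.36 and -0.27 to -0.03 at 24 hrs post-5-day, 24 hrs post-10-day, 1.5 wks and 4 wks. A fixed block for the slide could not be fitted at the 24 hr points.

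Of the members, Csad alone makes up the counts called at the 24 hr points, which are a description, since these contrasts chose it: 0 in place of 1 were called at 24 hrs post-5-day with the slide as a random block and with the replicate block, and 0 to 1 with 1 liver left out (0 without the fourth Ctrl liver). At 24 hrs post-10-day 1 in place of 0, Csad, was called with processed signals, offset 16, no normalization or Aquantile between arrays, Cy-5 alone, the series table, probes well above background, array weights and the mean of probes, and 0 to 1 with 1 liver left out (1 without the fifth AggE liver). At 4 wks 0 in place of 1 were called with no background correction, processed signals, offset 0, the series table, the 2 groups alone and a block for the slide, random or fixed, and 0 to 2 with 1 liver left out. With Cy-5 alone the 1 member called there was Gnmt (2.20), not Cdo1. By the 2-fold limit, the members past it at 24 hrs post-5-day were 2 in place of 1 with processed signals (Csad and Mat1a, the latter at 1.52), those at 1.5 wks were 0 in place of 1 in 7 of 17 alternatives and 0 to 2 with 1 liver left out, and at 4 wks the count moved in 8 of 17, to 0 to 3.

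With processed signals the counts from 24 hrs to 1.5 wks stayed at 4 and 5, but the 4 in Ctrl livers were Cdo1, Cth, Bhmt and Ahcy, which were joined by Csad in AggE livers, so that of the 4 enzymes Cth alone was shared. From 24 hrs to 1.5 wks, 7 in place of 4 were called in Ctrl livers with no background correction, and 3 in place of 5 in AggE livers with no normalization or Aquantile between arrays; with 1 liver left out these counts were 4 and 5 to 6. From 24 hrs to 4 wks, 2 (Cy-5 alone) or 1 (probes well above background) in place of 0 were called in Ctrl livers. In AggE livers 2 in place of 4 were called with no background correction or offset 16, and 1 with processed signals, offset 0, no normalization or Aquantile between arrays, Cy-5 alone, the series table, the slide as a random block and the scan day, and 1 to 4 with 1 liver left out (1 without the second AggE liver at 4 wks). Of the wider list, 2 in place of 1 were called at 24 hrs post-5-day with no background correction or offset 16, and 0 with offset 0, no normalization or Aquantile between arrays, the series table and the slide as a random block, and 0 to 1 with 1 liver left out. At 4 wks 0 in place of 2 were called with processed signals, offset 0, Cy-5 alone, the series table, the 2 groups alone and a block for the slide, random or fixed, 1 with offset 16 and 7 with array weights, and 0 to 6 with 1 liver left out (0 without the third AggE liver, 6 without the second Ctrl liver).

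Signs also turned for values within 1 SE of 0. At 24 hrs post-5-day, leaving no liver out, Cdo1 ranged from -0.70 to 0.42, Bhmt from -0.71 to 0.51, Ahcy from -0.89 to 0.26, Gnmt from -0.49 to 0.27 and Cbs from -0.58 to 0.19, and post-10-day Cdo1 from -0.66 to 0.20, Bhmt from -0.54 to 0.21, Ahcy from -0.53 to 0.15, Mat1a from -0.59 to 0.44 and Gnmt from -0.16 to 0.10, so that no direction is given for them. With no liver left out, Cdo1 ranged from -0.46 to 0.36, Bhmt from -0.75 to 0.24 and Ahcy from -0.20 to 0.06 at 1.5 wks. At 4 wks Ahcy ranged from -0.60 to 0.17, Cth from -0.05 to 0.48 and Csad from -0.46 to 0.02. The direction of these values is open too. Other signs turned as follows. With processed signals Cbs was at -0.048 at 24 hrs post-10-day, Cbs and Gnmt at 0.041 and 0.13 in Ctrl livers from 24 hrs to 4 wks, Cbs and Gnmt at 0.25 and 0.089 in AggE livers from 24 hrs to 1.5 wks, and Cdo1, Cbs, Mat1a and Ahcy at 0.86, 0.14, 0.29 and 0.035 in AggE livers from 24 hrs to 4 wks. For the last step Cdo1 was at 0.35 with no background correction, and Cdo1, Cbs and Mat1a at 0.64, 0.027 and 0.096 with the series table, which also gave Cbs -0.085 at 24 hrs post-10-day. With offset 0, Mat1a was at -0.27 at 24 hrs post-5-day and Cbs at -0.18 at 4 wks. With no normalization or Aquantile between arrays, Mat1a was at -0.49 at 24 hrs post-5-day, Cth and Cbs at -0.044 and -0.34 at 24 hrs post-10-day, Cbs at -0.16 at 4 wks, and Cdo1 and Cbs at 0.12 and 0.048 in AggE livers from 24 hrs to 4 wks. With Cy-5 alone, Bhmt and Mat1a were at 0.32 and 0.19 at 4 wks. With the slide as a fixed block, Cth was at -0.22 at 1.5 wks and Cbs and Bhmt at -0.63 and 0.13 at 4 wks, and leaving out 1 liver moved Cth at 1.5 wks between -0.039 (without the third Ctrl liver) and 0.71 (without the second). The cause was not tested.

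The replicate numbers did not pair the livers: of 16 same-numbered pairs, 6 correlated above 0.1, and 5 AggE arrays correlated best with their own number. With the replicate block Csad differed by -1.59 and -1.74 at the 24 hr points, and no count of members called other than that at 24 hrs post-5-day moved. The dim arrays at 1.5 wks and 24 hrs post-5-day limit what can be seen there, and at the 24 hr points slide and stressor cannot be told apart.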
